A study of Mus musculus with 4 samples.

Results

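The genes described here are 10 genes of the antioxidant and glutathione programme governed by the transcription factor NRF2, measured in the prefrontal cortex (PFC) of mice with a knockdown of *Ash1L*. They were named by their place in this programme, with earlier results of these data known, and all 10 of 10 were present among the 23420 gene symbols counted and among the 16232 genes with enough counts to be tested. *Nfe2l2* encodes NRF2 itself. *Slc7a11*, *Gclc*, *Gclm* and *Gss* serve cystine uptake and glutathione synthesis. *Srxn1* and *Txnrd1* act in the peroxiredoxin and thioredoxin systems. *Hmox1*, *Nqo1* and *Osgin1* are further stress-responsive targets.

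NRF2 is held at a low level by KEAP1, an adaptor that delivers it to a ubiquitin ligase. When oxidants or electrophiles modify KEAP1, NRF2 escapes degradation, enters the nucleus, pairs with a small MAF protein and binds antioxidant response elements in its target genes, a step opposed at some of them by the repressor BACH1. In the brain these genes are active mainly in glia, and astrocytes supply neurons with the precursors of glutathione.

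The samples were bulk RNA from C57BL6/J mice of 6 to 8 weeks of age. The control group (2 samples) had received GFP AAV9 in the PFC, and the *Ash1L* shRNA group (2 samples) had received AAV9 carrying an shRNA against *Ash1L*, a histone methyltransferase gene. The control virus is described in the methods as a scrambled shRNA. The shRNA was driven by the U6 promoter, which is active in all infected cell types, and the virus also carried GFP. Tissue was punched where GFP fluorescence was seen, so that uninfected cells were included. The methods state that each sample pooled 3 mice, whereas the series text lists 3 knockdown and 2 control mice. Mice given this shRNA virus had seizures.

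Total counts on genes ran from 14251190 to 35764874 per sample. Levels are given as CPM, the count of a gene relative to all counts of its sample, scaled between samples by the trimmed mean of M values (TMM). *Ash1l* was at 245 and 290 CPM in the control samples and at 216 and 138 CPM in the *Ash1L* shRNA samples, lower in both, with a log2 fold change of -0.60 (SE 0.22) and an adjusted p of 0.275 (edgeR quasi-likelihood test). It was called DOWN with all samples, by the rule given below, and not without control sample 1, control sample 2 or *Ash1L* shRNA sample 2 (-0.71, -0.48 and -0.31). On the first principal component (64.65% of variance) the control samples were at -27.4 and -36.7 and the *Ash1L* shRNA samples at 8.03 and 56.1. *Ash1L* shRNA sample 2 thus lay farthest from the controls, and it also had the lowest *Ash1l* level. A gene was called UP or DOWN at an unadjusted P under 0.05 and a change of at least 1.2-fold, the limits used by the study. The study applied them to results of DESeq2, whereas calls here are from edgeR unless another method is named. P-values measure the spread between these pools only, and an exact permutation of 2 against 2 samples cannot go below 0.333.

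The DNA just before the transcription start is shown for 4 of the genes, because these stretches hold short matches to the motifs of factors known to act on this programme. Each is the 250 bases before an annotated start, from RefSeq (GRCm38.p6), written 5′ to 3′ on the strand of the gene. Capitals mark the motif matches. For *Srxn1* and *Osgin1* they mark AP-1 sites, the longer capitals being NF-E2 type sites that contain one. For the second annotated start of *Txnrd1* they mark an antioxidant response element core on the opposite strand. For *Slc7a11* they mark a pair of C/EBP-ATF response element cores that face each other.
Srxn1 (chr2:152105274-152105523, plus strand): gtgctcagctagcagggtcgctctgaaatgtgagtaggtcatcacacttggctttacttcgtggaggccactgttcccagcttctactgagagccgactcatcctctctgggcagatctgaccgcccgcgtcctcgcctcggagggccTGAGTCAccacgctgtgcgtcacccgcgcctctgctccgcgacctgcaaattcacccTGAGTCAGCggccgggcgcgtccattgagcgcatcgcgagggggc
Osgin1 (chr8:119436897-119437146, plus strand): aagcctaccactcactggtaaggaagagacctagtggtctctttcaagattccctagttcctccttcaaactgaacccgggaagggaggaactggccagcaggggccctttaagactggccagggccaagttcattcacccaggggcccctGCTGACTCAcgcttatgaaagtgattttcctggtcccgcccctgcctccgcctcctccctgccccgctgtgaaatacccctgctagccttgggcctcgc
Txnrd1 (chr10:82858956-82859205, plus strand): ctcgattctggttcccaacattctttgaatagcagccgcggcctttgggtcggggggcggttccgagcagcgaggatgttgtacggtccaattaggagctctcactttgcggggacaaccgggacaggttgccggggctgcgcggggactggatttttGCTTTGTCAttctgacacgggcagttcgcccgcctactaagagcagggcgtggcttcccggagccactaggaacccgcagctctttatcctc
Slc7a11 (chr3:50443614-50443863, minus strand): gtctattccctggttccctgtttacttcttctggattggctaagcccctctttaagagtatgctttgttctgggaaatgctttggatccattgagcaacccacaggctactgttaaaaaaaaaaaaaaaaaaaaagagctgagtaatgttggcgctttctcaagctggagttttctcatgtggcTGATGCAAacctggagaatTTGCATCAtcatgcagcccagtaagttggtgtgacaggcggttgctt

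Windows were found for 8 of the 10 genes, 10 windows in all, since *Txnrd1* had 3 starts, and none was given for *Hmox1* and *Gclc*. The antioxidant response element core TGACNNNGC was searched on both strands. It was in 3 of the 10 windows, each of another gene, against 10.2% of 32851 windows before all RefSeq starts. It lay at -240 in *Nfe2l2* (same strand, first base relative to the start), at -134 in *Gclm* and at -92 in *Txnrd1* (both on the opposite strand). The AP-1 site TGANTCA was in 6.75% of all windows, and among the 8 genes it was in *Srxn1*, at -102 and -45, and in *Osgin1*, at -97. The longer NF-E2 type site TGANTCAGC, in which the factor's TGANTCA is followed by GC, was in 1.02% of all windows. It overlapped the AP-1 match at -45 in *Srxn1* and the one in *Osgin1*, where it lay on the opposite strand from -99. Both matches read TGAGTCAGC on their strand. The antioxidant response element core was searched only with C after TGA, so these matches were not counted under it. With G also allowed there, both would match that core, but the share of all windows with this wider form was not counted. The C/EBP-ATF core TGATGNAA, of the kind bound by the amino acid response factor ATF4, was in 3.45% of all windows and occurred at least 2 times in 0.0396%. *Slc7a11* was among the latter, with matches at -66 and, on the opposite strand, at -47. The motifs were chosen after the sequences were seen, and a match is a stretch of letters, not a measured binding site.

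**Figure D1:**
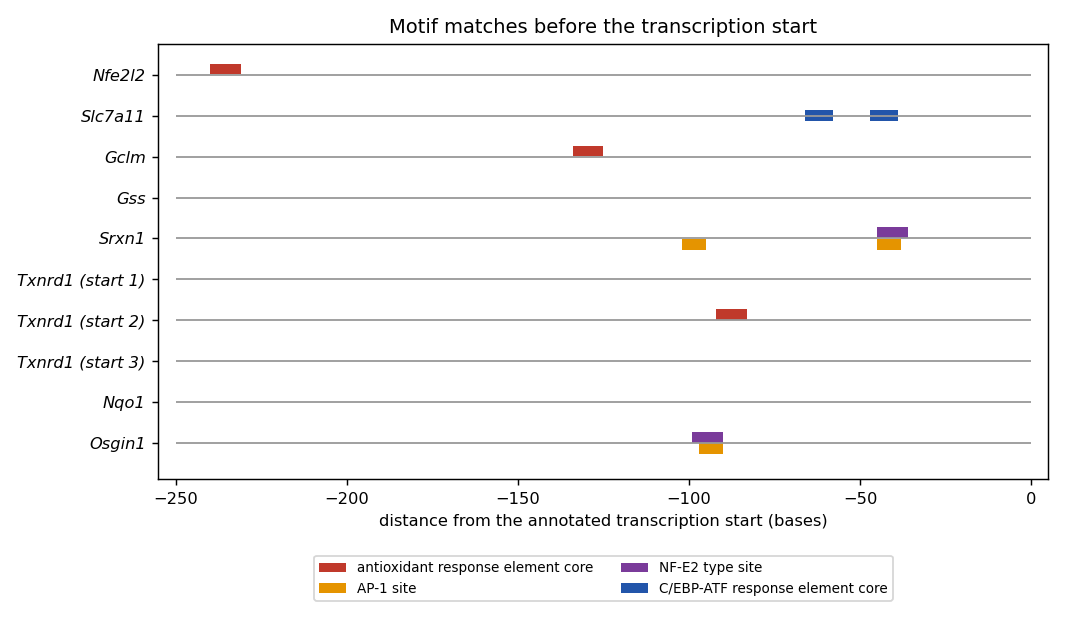
Positions of motif matches in the 250 bases before each annotated start, drawn as coloured boxes on 10 windows of 8 genes (distance from the start in bases on the horizontal axis). *Srxn1* and *Osgin1* hold NF-E2 type sites over AP-1 sites, and *Slc7a11* holds 2 C/EBP-ATF cores at -66 and -47. *Nqo1* and *Gss* hold none of the 4 motifs in these windows, and bases farther from the start were not searched.

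In the PFC with *Ash1L* shRNA, *Hmox1* rose 2.42-fold and *Txnrd1* rose 1.69-fold, while *Slc7a11*, the cystine transporter that feeds glutathione synthesis, fell 1.68-fold. The other 7 genes were not called. So 2 of 10 genes were UP, against 8.61% of all tested genes, and 1 of 10 was DOWN, against 8.28%. Both *Ash1L* shRNA samples lay above both control samples for 8 of the 10 genes, which held for 26.5% of all tested genes, and below both for the other 2, which held for 26.8%. Without control sample 2, 1 gene was UP and none was DOWN, when 2.57% and 1.86% of all tested genes were, and without *Ash1L* shRNA sample 1, 6 were UP and 1 was DOWN, when 14.4% and 16.5% were. The median log2 fold change over the 10 genes was 0.45, and over all tested genes it was -0.0027. None of the 10 had an adjusted p under 0.05 in edgeR, a limit passed by no tested gene in the higher direction and by 0.00616% in the lower. Unadjusted, 3 had an unadjusted p under 0.05, against 16.9% of all tested genes. In DESeq2, the method of the study, 4 of the 10 were UP, against 6.16%, and 1 was DOWN, against 6.35%. The 4 were *Hmox1*, *Txnrd1*, *Srxn1* and *Gss*, and the gene DOWN was *Slc7a11*. DESeq2 gave 3 with an adjusted p under 0.05, where 1.53% of its genes passed in the higher direction and 0.983% in the lower. In bulk tissue, fewer cells of a type and less RNA per cell cannot be told apart.

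**Figure D2:**
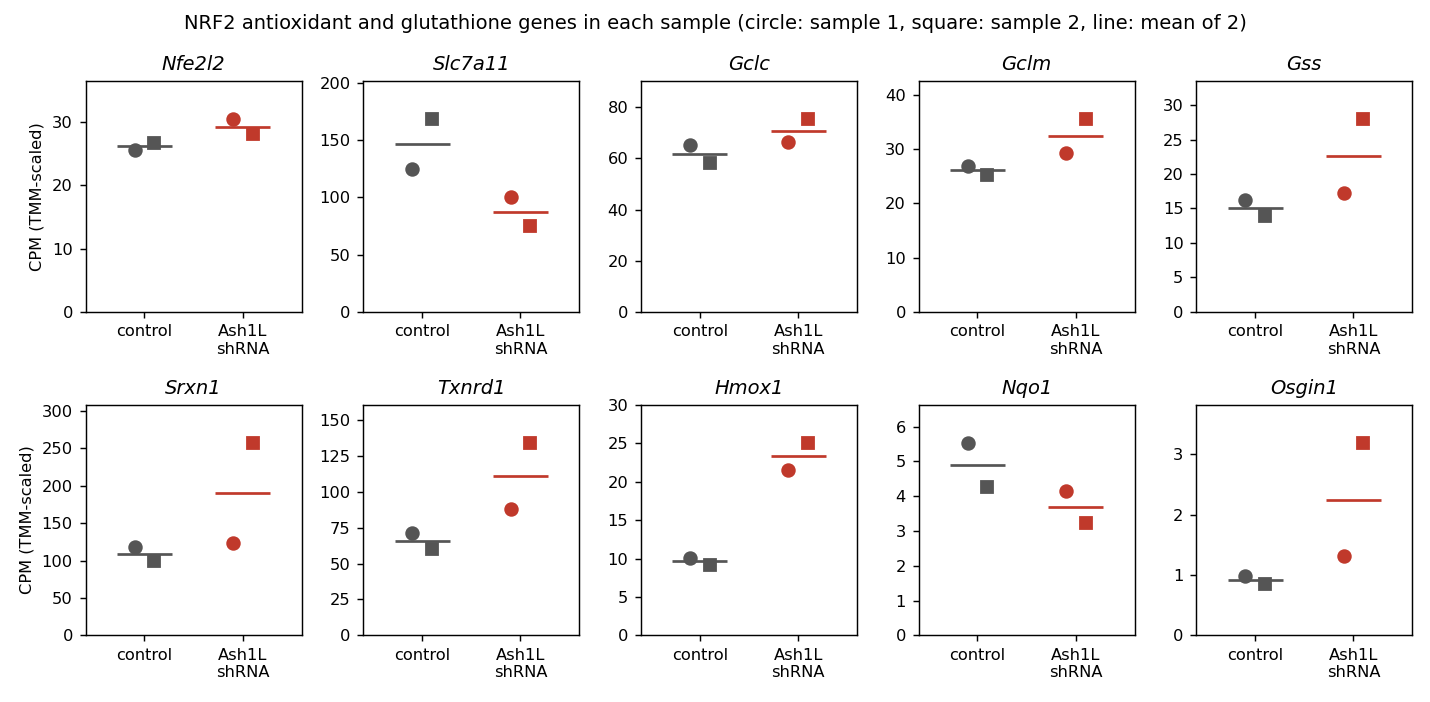
TMM-scaled CPM of the 10 genes in each sample, 1 panel per gene with its own axis from 0 (circles are sample 1, squares sample 2, horizontal lines the mean of 2 samples). Both *Ash1L* shRNA points lie above both control points for 8 genes and below them for *Slc7a11* and *Nqo1*.

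The RNA of the regulator itself was not called. *Nfe2l2* (chr2:75675513-75704641, minus strand, mm10) was at 25.6 and 26.8 CPM in the control samples and at 30.5 and 28.2 CPM in the *Ash1L* shRNA samples. Both knockdown values were above both control values by a small margin. The log2 fold change was 0.16 (SE 0.13), with an adjusted p of 0.543 (edgeR). *Keap1*, which encodes the inhibitor, was at 72.3 and 72.7 CPM in the control samples and at 66.6 and 56.9 CPM with the knockdown, a log2 fold change of -0.23 (SE 0.12) that was also not called. The ratio of *Nfe2l2* to *Keap1* counts, which is not corrected for gene length and is read only between samples, was 0.355 and 0.368 in the control samples and 0.457 and 0.496 in the *Ash1L* shRNA samples.

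Of the genes that supply and build glutathione, the cystine transporter was DOWN. *Slc7a11* (chr3:49892526-50443614, minus strand) encodes the light chain of the cystine-glutamate exchanger xCT, and its level was 125 and 168 CPM in the control samples and 100.3 and 74.7 CPM in the *Ash1L* shRNA samples. The control samples differed from each other by more than the nearer control and knockdown samples did, yet the groups did not overlap. The mean was 147 ± 30.5 CPM in controls and 87.5 ± 18.1 CPM with the knockdown (SD, n = 2). The log2 fold change was -0.75 (SE 0.20, unadjusted p 0.00932), with an adjusted p of 0.255 (edgeR). Without control sample 2 the log2 fold change was -0.52 and the call was lost. *Slc3a2*, the heavy chain that carries xCT to the membrane, was at 102 and 113 CPM in the control samples and at 98.9 and 109 CPM with the knockdown, with overlapping groups and a log2 fold change of -0.05 (SE 0.12). The count ratio of light to heavy chain was accordingly 1.23 and 1.48 in controls and 1.01 and 0.682 with the knockdown.

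The enzymes that build glutathione were higher in both *Ash1L* shRNA samples, and none of them was called. For each, the 95% Poisson intervals of control sample 1 and *Ash1L* shRNA sample 1, which cover counting error only, overlapped. *Gclc* (chr9:77754535-77794485, plus strand), the catalytic subunit of glutamate-cysteine ligase, was at 65.3 and 58.2 CPM in the control samples and at 66.5 and 75.3 CPM with the knockdown. Its lower knockdown value was next to its higher control value. This was a log2 fold change of 0.20 (SE 0.13), with an adjusted p of 0.443 (edgeR). *Gclm* (chr3:122245557-122270732, plus strand), the modifier subunit of the same ligase, was at 27.0 and 25.3 CPM in the control samples and at 29.2 and 35.5 CPM with the knockdown. Here too sample 2 of the knockdown was the highest. For *Gclm* the log2 fold change was 0.31 (SE 0.15), with an adjusted p of 0.339 (edgeR), and it was 0.17 without *Ash1L* shRNA sample 2 and 0.44, called UP, without sample 1. The count ratio of modifier to catalytic subunit stayed within a narrow range, at 0.413 and 0.434 in controls and 0.440 and 0.472 with the knockdown. *Gss* (chr2:155563181-155592810, minus strand), glutathione synthetase, which adds glycine in the last step, was at 16.2 and 13.97 CPM in the control samples and at 17.2 and 27.9 CPM with the knockdown. Most of its difference came from *Ash1L* shRNA sample 2. For *Gss* the log2 fold change was 0.58 (SE 0.25), with an adjusted p of 0.308 (edgeR), and it was 0.20 without that sample. Exons of *Gss* share 395 bases with the oppositely transcribed *Acss2*, 322 with *Gssos1* and 385 with *Gssos2*, and those of *Gclm* share 296 bases with *Gm17494* and 244 with *Gm6061*. The strand setting of the counting is not given in the sources used here, so reads in those bases cannot be assigned, though *Acss2* itself had a log2 fold change of 0.08 (SE 0.13) with overlapping groups.

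Of the genes that regenerate oxidised peroxiredoxins and thioredoxin, *Txnrd1* was called UP. *Txnrd1* (chr10:82833951-82897712, plus strand), the cytosolic thioredoxin reductase, was at 71.1 and 60.3 CPM in the control samples and at 87.9 and 134 CPM in the *Ash1L* shRNA samples. The groups did not overlap, and the knockdown samples differed from each other by more than sample 1 differed from the controls. The mean was 65.7 ± 7.57 CPM in controls and 111 ± 32.4 CPM with the knockdown (SD, n = 2). *Txnrd1* had a log2 fold change of 0.76 (SE 0.21, unadjusted p 0.0117), with an adjusted p of 0.260 (edgeR). The call for *Txnrd1* was lost without control sample 2, at a log2 fold change of 0.64, and was kept without *Ash1L* shRNA sample 2, at 0.43. Its mitochondrial counterpart was measured beside it, and the count ratio of *Txnrd1* to *Txnrd2* was 4.29 and 4.49 in controls and 6.46 and 8.63 with the knockdown.

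*Srxn1* (chr2:152105516-152111376, plus strand) encodes sulfiredoxin, which restores hyperoxidised peroxiredoxins, and it has the pair of AP-1 matches printed above. It was at 117 and 99.9 CPM in the control samples and at 123 and 257 CPM with the knockdown. *Ash1L* shRNA sample 1 was barely above the higher control, whereas sample 2 was far above all other samples. In log2 the difference was 0.80 (SE 0.35), with an adjusted p of 0.320 (edgeR), so that a larger difference than that of *Txnrd1* was not called. Without *Ash1L* shRNA sample 2 it was 0.18, and without sample 1 it was 1.24 and *Srxn1* was called. The count ratio of *Srxn1* to *Prdx1*, which encodes one of its substrates, was 1.15 and 0.948 in controls, and 1.19 and 2.71 with the knockdown.

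*Hmox1* had the lowest p of the 10 genes. *Hmox1* (chr8:75093621-75100589, plus strand) encodes heme oxygenase 1, which breaks heme down to biliverdin, iron and carbon monoxide. It was at 10.1 and 9.15 CPM in the control samples and at 21.6 and 25.04 CPM in the *Ash1L* shRNA samples. Both knockdown samples were far above either control, and they were close to each other. The mean was 9.64 ± 0.693 CPM in controls and 23.3 ± 2.45 CPM with the knockdown (SD, n = 2). The log2 fold change was 1.28 (SE 0.17, unadjusted p 0.000199), with an adjusted p of 0.231 (edgeR), and its p ranked 14 among the 16232 genes tested. Each sample left out in turn gave between 1.17 and 1.38, and the call was kept in 4 of 4. The constitutive isoenzyme gene *Hmox2* was at 40.3 and 47.7 CPM in the control samples and at 38.3 and 29.6 CPM with the knockdown, with a log2 fold change of -0.38 (SE 0.17) that was not called. The count ratio of *Hmox1* to *Hmox2* was 0.251 and 0.192 in controls and 0.564 and 0.845 with the knockdown.

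*Nqo1*, a quinone reductase often used as a readout of NRF2, was not called and was lower in both knockdown samples. *Nqo1* (chr8:107388225-107403206, minus strand) was at 5.53 and 4.28 CPM in the control samples and at 4.16 and 3.23 CPM in the *Ash1L* shRNA samples. The lower control and the higher knockdown value were nearly equal, with 95% Poisson intervals, which cover counting error only, of 3.62 to 5.02 and 3.43 to 5.0 CPM. The log2 fold change was -0.39 (SE 0.295), with an adjusted p of 0.517 (edgeR), and it was -0.20 without control sample 1, -0.22 without *Ash1L* shRNA sample 2 and -0.59 without sample 1. *Osgin1* (chr8:119434124-119446256, plus strand), an oxidative stress-induced growth inhibitor gene, was the lowest of the 10, with 14 and 30 counts in the control samples and 36 and 66 counts with the knockdown. In CPM these were 0.992 and 0.855 against 1.31 and 3.18, and only the interval of *Ash1L* shRNA sample 2 (2.46 to 4.05 CPM) was clear of the intervals of all other samples. *Osgin1* had a log2 fold change of 1.28 (SE 0.54), as large as that of *Hmox1*, with an adjusted p of 0.299 (edgeR), and it was not called. Without *Ash1L* shRNA sample 2 it was 0.53.

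**Figure D3:**
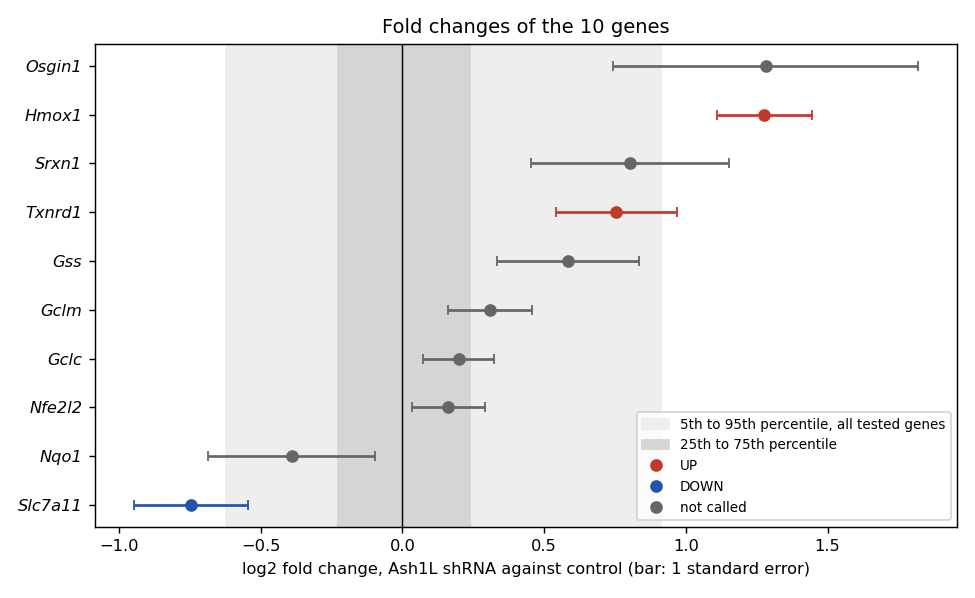
Log2 fold change of each of the 10 genes, *Ash1L* shRNA against control (points, with bars of 1 standard error), over the range of all tested genes in grey. *Hmox1* (1.28) and *Osgin1* (1.28) lie beyond the 95th percentile of all tested genes (0.91) and *Slc7a11* (-0.75) below the 5th (-0.62), and the bar of *Osgin1* is wider (0.54 against 0.17 for *Hmox1*).

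The *Ash1L* shRNA samples did not share these differences equally. Relative to the control mean on the log2 scale, 9 of the 10 genes lay farther out in sample 2 than in sample 1. The same held for 69.9% of all tested genes and for 75.2% of those whose groups did not overlap. For these 2 shares 1 was added to each CPM, which was not done for the 10 genes. *Osgin1* was higher by 0.51 in sample 1 and by 1.79 in sample 2, *Srxn1* by 0.18 and 1.24, and *Gss* by 0.19 and 0.89. For *Hmox1* the values were 1.16 and 1.38. *Nfe2l2* was the exception, at 0.22 in sample 1 and 0.11 in sample 2. Of the 3 called genes, *Txnrd1* was at 0.42 and 1.02, and *Slc7a11* at -0.55 and -0.97, so that each had the direction of its call in both samples.

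**Figure D4:**
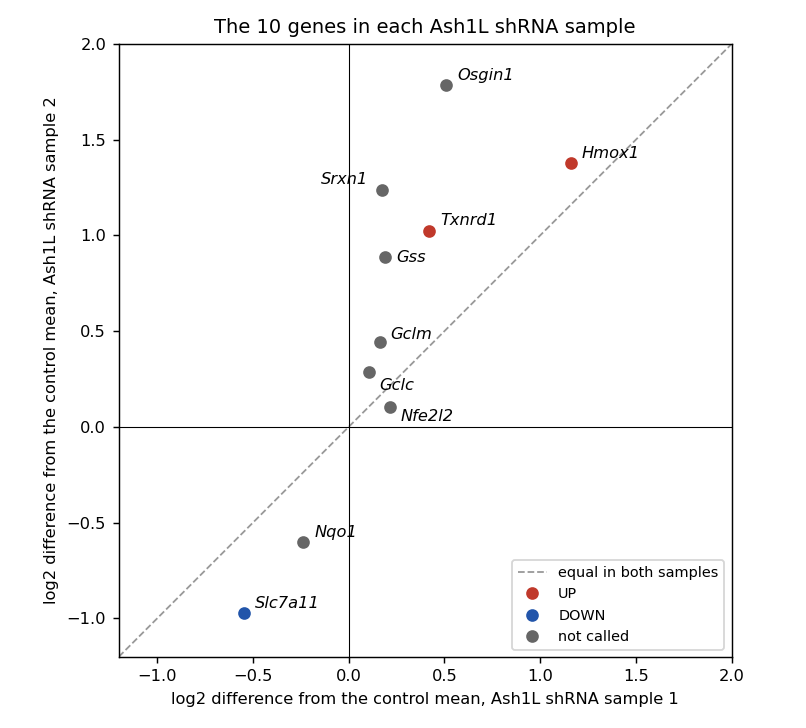
Log2 difference from the control mean of each gene in *Ash1L* shRNA sample 1 (horizontal) and sample 2 (vertical), with the line of equal difference dashed. *Srxn1*, *Gss* and *Osgin1* lie well above the line, and *Hmox1* lies near it at 1.16 and 1.38.

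Levels per length are given as RPKM, that is CPM divided by the exonic length in kilobases. This length joins the exons of all annotated transcripts, 9 for *Gss* and 1 for *Nqo1*, so the order depends on the annotation too. *Srxn1* had the highest level of the 10 genes in both groups, with means of 38.5 in controls and 67.3 with the knockdown. In controls it was followed by *Gclc* (16.4), *Slc7a11* (10.5), *Txnrd1* (9.27), *Nfe2l2* (6.91), *Hmox1* (5.51), *Gclm* (4.15), *Nqo1* (3.16), *Gss* (2.55) and *Osgin1* (0.345). Of these neighbours, the sample ranges overlapped for *Slc7a11* and *Txnrd1*. With the knockdown, *Hmox1* stood at 13.3 RPKM, above *Nfe2l2* (7.73) and *Slc7a11* (6.28), both of which had exceeded it in controls. The knockdown ranges of *Gclc* (18.8) and *Txnrd1* (15.6) overlapped, as did those of *Txnrd1* and *Hmox1*, of *Slc7a11* and *Gclm* (5.15), and of *Gclm* and *Gss* (3.82). *Nqo1* (2.38) and *Osgin1* (0.841) were the lowest with the knockdown.

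The genes nearest in pattern to each called member were found by the Euclidean distance between log2 CPM deviations from the control mean over the 4 samples. For *Hmox1* these were *Hn1l* (0.11), *Myo18b* (0.14) and *Ppp1r3b* (0.14), and 28 genes lay within 0.3. *Txnrd1* was nearest to *C1ql2* (0.036), *Taf4b* (0.052) and *Opn1sw* (0.053), with 192 genes within 0.3. *Slc7a11* was nearest to *Nubp2* (0.016), *4921511H03Rik* (0.047) and *C1qtnf4* (0.054), with 224 genes within 0.3. Fewer genes thus lay near *Hmox1* than near the other 2. Its log2 fold change was also the largest in size (1.28, against 0.76 for *Txnrd1* and -0.75 for *Slc7a11*). Fewer genes change by that much, so the number within a fixed distance is not a measure of pattern alone.

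A wider set of 110 genes of the same pathways was examined, of which 107 were tested. In it 23 genes were UP (21.5%, against 8.61% of all tested genes) and 6 were DOWN (5.6%, against 8.28%), and their median was 0.10 in log2. The number UP was 7 without control sample 2, when 2.57% of all tested genes were UP, and 14 without control sample 1, when 5.07% were. The number DOWN was between 1 and 22 with each sample left out, the highest without *Ash1L* shRNA sample 1, when 20.6% of the pathway genes and 16.5% of all tested genes were DOWN. Each list below is read against the same shares of all tested genes, 8.61% UP and 8.28% DOWN. These shares hold only for the edgeR fit of all samples without a block. With the replicate block 6.48% of all tested genes were UP, and in DESeq2 6.16% were. List counts with a sample left out are not read against any of these shares, since each such fit called another share of all tested genes. These lists were chosen with earlier results of these data known, and their counts are a description.

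Among 14 regulators and partners of NRF2, 3 were UP and none was DOWN, and the median was 0.14 in log2. *Bach1*, the repressor that competes with NRF2 at *Hmox1*, was at 28.6 and 26.1 CPM in the control samples and at 44.6 and 53.6 CPM with the knockdown, a log2 fold change of 0.84 (SE 0.15). The groups of *Bach1* RNA did not overlap, and its adjusted p was 0.240 (edgeR). Its part in the level of *Hmox1* was not tested. *Maff*, a small MAF partner, was at 1.77 CPM in both control samples and at 3.32 and 11.7 CPM with the knockdown, a log2 fold change of 2.07 (SE 0.62). *Btrc*, an F-box protein through which NRF2 can also be degraded, was UP by a smaller amount, 0.30 (SE 0.11). Without either control sample 1 gene of this list was UP, and without *Ash1L* shRNA sample 1, 6 were UP and 2 DOWN.

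Among 17 tested further targets of NRF2, 4 were UP, none was DOWN and the median log2 fold change was 0.09. *Ephx1*, an epoxide hydrolase, was at 56.7 and 29.8 CPM in the control samples and at 64.8 and 112 CPM with the knockdown, a log2 fold change of 1.05 (SE 0.39). Its control samples differed widely from each other. The aldo-keto reductase gene *Akr1b8* had a log2 fold change of 1.56 (SE 0.57), the prostaglandin reductase gene *Ptgr1* one of 1.23 (SE 0.45), and the exporter gene *Abcc4* one of 0.35 (SE 0.13). Levels of *Akr1b8* were low, at 1.06 and 1.05 CPM in controls and 1.64 and 4.68 CPM with the knockdown. So were those of *Ptgr1*, at 1.84 and 1.31 CPM against 2.48 and 4.82 CPM, and both were highest in *Ash1L* shRNA sample 2. The remaining 13 tested genes of this list were not called. The number UP was 0 without control sample 2 and 2 without control sample 1 or *Ash1L* shRNA sample 2, it was 1 with the replicate number as a block and 2 in DESeq2, and 2 genes were DOWN without *Ash1L* shRNA sample 1.

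In the list of glutathione use and recycling, 7 of 29 genes were UP, 1 was DOWN and the median difference was 0.08 in log2. *Gsr*, glutathione reductase, which returns oxidised glutathione to its reduced form, was at 46.1 and 41.1 CPM in the control samples and at 60.5 and 82.3 CPM with the knockdown, a log2 fold change of 0.71 (SE 0.17). *Hagh*, a hydrolase of the glyoxalase pathway, had the same change, 0.71 (SE 0.19). *Glrx5*, a mitochondrial glutaredoxin gene, was UP by 0.47 (SE 0.16), and *Slc1a1*, a neuronal transporter of glutamate and cysteine, by 0.29 (SE 0.12). *Ggt7*, of the gamma-glutamyltransferase family, was DOWN at a log2 fold change of -0.34 (SE 0.13). Without control sample 2, 1 gene of this list was UP and none DOWN, without *Ash1L* shRNA sample 2, 4 were UP and none DOWN, and without *Ash1L* shRNA sample 1, 7 were UP and 7 DOWN.

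Of 19 other thioredoxin, peroxiredoxin and superoxide genes, none was UP and 3 were DOWN, and the median was 0.06 in log2. *Prdx6*, a peroxiredoxin abundant in astrocytes, was at 224 and 200.3 CPM in the control samples and at 149 and 115 CPM with the knockdown, a log2 fold change of -0.68 (SE 0.15). *Txnip*, the thioredoxin-interacting inhibitor, had a log2 fold change of -0.72 (SE 0.27), and *Txn2*, mitochondrial thioredoxin, one of -0.40 (SE 0.17). Left-out samples moved the balance of this list, to 2 UP and 1 DOWN without *Ash1L* shRNA sample 2, 2 UP and 6 DOWN without *Ash1L* shRNA sample 1, 1 UP and 2 DOWN without control sample 1, and 0 UP and 1 DOWN without control sample 2. Of 7 enzymes that make NADPH, *Me1*, malic enzyme, was UP by 0.41 (SE 0.12) and *Idh2*, the mitochondrial isocitrate dehydrogenase, was DOWN at a log2 fold change of -0.37 (SE 0.15). None of the 7 was called without control sample 2, none was DOWN without control sample 1 or *Ash1L* shRNA sample 2, and 2 were UP without *Ash1L* shRNA sample 1.

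Around *Hmox1*, 3 of 12 heme and iron genes were UP and 1 was DOWN. *Fth1*, the ferritin heavy chain that stores the iron released from heme, was at 637 and 504 CPM in the control samples and at 849 and 710 CPM with the knockdown, a log2 fold change of 0.45 (SE 0.16). *Blvrb*, a biliverdin reductase, was UP by 0.74 (SE 0.27) and *Fech*, which makes heme, by 0.30 (SE 0.11). *Slc48a1*, a heme transporter, was DOWN at a log2 fold change of -0.92 (SE 0.35). No gene of this list was called without control sample 2, 1 was UP without control sample 1 or *Ash1L* shRNA sample 2, and 4 were DOWN without *Ash1L* shRNA sample 1.

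ATF4 also acts on *Slc7a11*, whose promoter holds the C/EBP-ATF cores printed above, and 5 of 9 genes of ATF4 and its targets were UP, with none DOWN and a median of 0.35 in log2. *Atf4* was at 95.8 and 97.9 CPM in the control samples and at 128 and 157 CPM with the knockdown, a log2 fold change of 0.56 (SE 0.14). *Asns*, asparagine synthetase, was UP by 0.35 (SE 0.11), *Nupr1*, a stress-induced nuclear protein gene, by 0.87 (SE 0.21), and *Chac1*, whose product degrades glutathione, by 0.74 (SE 0.19). The number UP was 3 without control sample 1 and 5 with each other sample left out. *Slc7a11* (-0.75) thus had the opposite direction to the called genes of this list.

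**Figure D5:**
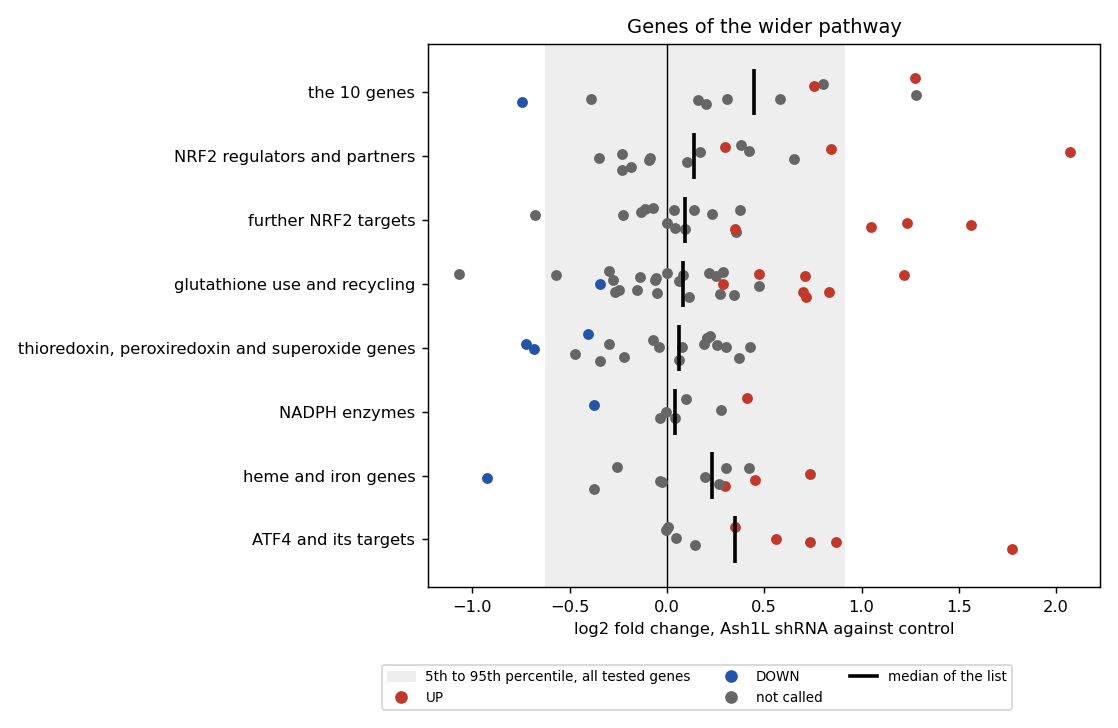
Log2 fold changes of the 10 genes and of 7 lists of related genes, 1 point per tested gene (red UP, blue DOWN, grey not called; vertical bars are medians; the shaded band spans the 5th to 95th percentile of all tested genes). The median of the 10 genes is 0.45, that of ATF4 and its targets 0.35 and that of the thioredoxin list 0.06.

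Marker genes of cell types differed between the groups as well. Of 8 astrocyte markers 6 were DOWN and none was UP, and their summed level was 5198 and 5465 CPM in the control samples and 4110 and 2972 CPM with the knockdown. *Slc1a2*, the main glutamate transporter of astrocytes, had a log2 fold change of -0.47 and *Aldoc*, an astrocyte aldolase, one of -1.18. Of 7 reactive astrocyte genes 2 were UP and none was DOWN, with sums from 454 to 523 CPM in controls and from 530 to 640 CPM with the knockdown. Of 8 excitatory neuron markers 3 were DOWN and none was UP, with sums of 2835 and 3323 CPM in controls and 2620 and 2127 CPM with the knockdown, and of 6 interneuron markers 2 were DOWN. None of these markers was at 0 in any sample. From control sample 2 down to *Ash1L* shRNA sample 2, the samples had the same order in the astrocyte sum, the excitatory neuron sum and *Slc7a11*. The first principal component and *Ash1l* put the samples in that order as well, so it is not particular to these genes. How many of all tested genes share it was not counted. The part of these differences in the results for the 10 genes was not tested.

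*Hmox1* is also expressed by phagocytes and *Fth1* by microglia. None of 7 microglia markers was called, and their summed level was 735 and 760 CPM in the control samples, 922 CPM in *Ash1L* shRNA sample 1 and 373 CPM in sample 2. Of 7 tested monocyte and phagocyte markers 1 was UP and 2 were DOWN, with sums of 104 and 117 CPM in controls and 108 and 48.4 CPM with the knockdown. Within the latter, *Gpnmb*, named after its values were seen, was UP, at 7.01 and 8.35 CPM in the control samples and 25.7 and 10.8 CPM with the knockdown. The part of these cells in the level of *Hmox1* was not tested. All 6 lymphocyte markers were DOWN, with sums of 8.15 and 15.3 CPM in controls and 1.5 and 1.30 CPM with the knockdown. Of the neutrophil markers 1 was tested and it was UP, with the sum of the list between 1.31 and 1.98 CPM in all samples and *Camp* at 0 in a sample. The red blood cell genes *Hba-a1* and *Hba-a2* were listed at 0 in all samples, and the 1 tested marker of that list was not called. None of 6 oligodendrocyte and 6 endothelial markers was called, while of 6 meningeal fibroblast markers 2 were UP and 1 was DOWN, with sums from 81.8 to 138 CPM in controls and from 143 to 155 CPM with the knockdown.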

How the data were processed

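Stranded libraries (TruSeq) were made from total RNA of PFC punches after removal of ribosomal RNA, for 2 control and 2 *Ash1L* shRNA samples, grouped by their labels. The authors deposited whole-number counts for each gene symbol, made with STAR alignment to mm10 and featureCounts, without normalization or filtering. The labels' protocol names Cutadapt and TopHat2 instead. Strand and multiple-mapping settings of the counting are not given in the sources used here. Every count column was used.

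Genes were filtered with filterByExpr and scaled by TMM in edgeR 4.0.16 (R 4.3.3), and *Ash1L* shRNA was compared with control by the quasi-likelihood test with robust estimation. P-values were adjusted by Benjamini-Hochberg across all 16232 genes in the fit. The standard error of a log2 fold change is its size over the root of F. UP and DOWN need an unadjusted P under 0.05 and at least a 1.2-fold change. Total counts ran from 14251190 to 35764874, and the common coefficient of biological variation was 0.173. Between samples of a group, chi-square over its degrees of freedom was 14.8 for control and 42.3 for *Ash1L* shRNA, so that samples differed by more than counting error. Poisson intervals (95%) cover counting error only. Exonic lengths, GC content and positions came from GENCODE vM21 (mm10), which matched 93.0% of symbols, and promoters and their positions from RefSeq (GRCm38.p6).

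The 10 genes and all lists were chosen with earlier results of these data known. Named are all 10 genes and *Ash1l*, the called genes of each pathway list (at most 4 per direction, by mean count), the 2 most abundant markers of lists described by name, the 3 genes nearest in pattern to each called gene, and, named after their values were seen, genes that pair with a member (*Keap1*, *Slc3a2*, *Hmox2*, *Txnrd2*, *Prdx1*), overlap it or are at 0. Alternatives were RLE, upper-quartile and library-size scaling, other count filters, DESeq2 1.42.0, the likelihood ratio test, no robust estimation, offsets for GC content and length, a 1.5-fold limit, a replicate block and each sample left out. The scripts were tested on simulated data.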

Additional observations from a re-analysis of the deposited data

How the results depend on the processing

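In all 190 recomputations of the 10 genes no log2 fold change turned its sign, and the call was as reported in 168, gained in 20 and lost in 2. *Hmox1*, *Txnrd1* and *Slc7a11* were called in 14 of 14 alternatives that kept all samples, the crossed pairing not counted. *Osgin1* was called in 7 of them, *Gss* in 4 and *Srxn1* in 3. Calls were lost without control sample 2 for *Txnrd1* (0.64) and *Slc7a11* (-0.52). With all samples kept, their adjusted p ran from 1.18e-05 to 0.390 for *Hmox1*, from 0.0465 to 0.390 for *Txnrd1* and from 0.0352 to 0.390 for *Slc7a11*, and with a sample left out from 0.00341, 0.00403 and 0.0168, each without *Ash1L* shRNA sample 1, to 0.870 for each, without control sample 2. *Gclm*, *Gss*, *Srxn1* and *Osgin1* gained a call without *Ash1L* shRNA sample 1.

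The 10 genes held 4 UP under library-size scaling, without the filter and in DESeq2, when 10.1%, 7.83% and 6.16% of all tested genes were UP, and 5 in the likelihood ratio test, when 8.72% were. Those with an adjusted p under 0.05 numbered 1 without the filter, when 34 of all 20177 tested genes passed. They numbered 3 in DESeq2, when 420 of all 16686 genes given an adjusted p passed. In the likelihood ratio test 1 passed, when 479 of all 16232 tested genes did. With each sample left out, between 1 and 6 were UP, between 0 and 1 DOWN, and between 0 and 6 had an adjusted p under 0.05. The highest numbers came without *Ash1L* shRNA sample 1. A group then holds 1 sample, which is assumed to vary like those of the other group.

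Of all tested genes, 34 passed an adjusted p of 0.05 without the filter, 420 in DESeq2 and 479 in the likelihood ratio test, against 1 as reported. With a sample left out this was 0 to 2502, the number UP 423 to 2368 and the number DOWN 306 to 2718. At the 1.5-fold limit 765 were UP (4.71%) and 491 DOWN (3.02%), so that 60.9% of calls were UP. Under library-size scaling 58.8% of calls were UP, against 51.0% as reported, and 7.05% of all tested genes were DOWN. Without the filter 7.51% of all tested genes were DOWN. At the 1.5-fold limit 13.1% of the tested pathway genes were UP and 2.8% DOWN. The pathway share DOWN was 2.8% under library-size scaling and 9.09% without the filter. Of the pathway genes, 14 were UP and 3 DOWN at the 1.5-fold limit, 3 were DOWN under library-size scaling and 10 without the filter, and with a sample left out 7 to 28 were UP and 1 to 22 DOWN. *Ash1l* was not called with the length offset (-0.55), nor without control sample 1 (-0.71), control sample 2 (-0.48) or *Ash1L* shRNA sample 2 (-0.31), and was called without *Ash1L* shRNA sample 1 (-0.97).

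Samples of the groups share replicate numbers, but the deviations of same-numbered samples correlated at -0.11 and no source pairs them. With a replicate block (6.48% of all tested genes UP, 6.28% DOWN) the 10 genes held 2 UP and 1 DOWN, *Hmox1*, *Txnrd1* and *Slc7a11* kept their calls, 0 genes in all passed an adjusted p of 0.05 (2072 had an unadjusted p under 0.05 in edgeR), and 17 pathway genes were UP and 4 DOWN. The block with the GC offset gave 3 genes and with the length offset 38, with *Ash1l* not called at -0.59. The crossed pairing, added after the data were seen, gave 4 of the 10 genes UP (9.49% of all tested genes), 12 pathway genes DOWN (11.2%, against 10.7% of all tested genes) and 16 of all genes past an adjusted p of 0.05. The causes of these shifts were not tested. *Osgin1*, with 14 to 66 counts, had the widest counting intervals relative to its level.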
